A study of Mus musculus with 14 samples.

Results

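The comparison described here set granulosa cells (GCs) of leptin-deficient ob/ob mice against GCs of their lean controls (CT ob). Its members were chosen by column name and were 6 of the 14 RNA-seq libraries of the study. These were obHOM_106, obHOM_41 and obHOM_50 from ob/ob mice and obHet_60, obHet_65 and obHet_68 from CT ob mice. The study also sequenced GCs of db/db mice, which lack the long leptin receptor, and of their lean controls (CT db), in 4 libraries each. The ob/ob mice carried the B6.Cg-Lepob/J mutation in both copies of the leptin gene Lep (labelled -/-), and the controls were lean littermates labelled wild type (+/+). Both groups were females that ate chow until 12 weeks of age. The column names of the controls read as heterozygous while their labels read as wild type, and which of these holds could not be settled. Each library pooled about 50 cells of antral follicles, taken from complexes of GCs and oocyte that puncture had released and that were then disrupted mechanically. The labels do not say whether the libraries of a group came from separate animals, so p-values here measure the spread between libraries.

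The libraries held 5306632, 6907152 and 8367593 counts in ob/ob and 4847166, 3762905 and 3664219 counts in CT ob. Values in ob/ob are always given in the order obHOM_106, obHOM_41, obHOM_50, and those in CT ob in the order obHet_60, obHet_65, obHet_68. Levels are given as CPM, counts in each 1000000 of a library total scaled by its TMM factor. A level of 3 counts, the detection floor, was 0.526, 0.418 and 0.371 CPM in ob/ob and 0.577, 0.756 and 1.04 CPM in CT ob. The reads carried no molecular identifiers, so such floors cover counting error only.

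GCs line the ovarian follicle and respond to follicle-stimulating hormone through its receptor Fshr. They convert androgens to oestrogens with aromatase (Cyp19a1), secrete inhibins and activins, and exchange small molecules through gap junctions built from connexin 43 (Gja1). A basement membrane of laminins and collagen IV separates them from the theca and its blood vessels. Leptin, a hormone of fat cells, signals through Lepr to Janus kinases and STAT proteins, and the comparison addresses what GCs transcribe where it is missing.

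Lep itself had 0, 0 and 3 counts in ob/ob and 0, 0 and 2 counts in CT ob. Lepr had 17, 4 and 12 counts in ob/ob and 3, 8 and 12 counts in CT ob. Lep lay at or below the floor in each library. Lepr had few counts, and its groups overlapped. Neither gene could thus tell the genotypes apart.

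All 15 GC markers were detected and tested, and their summed level was 19811, 27909.8 and 23486 CPM in ob/ob and 12315, 13460.5 and 17814 CPM in CT ob. The most abundant of them per kilobase of exon was the inhibin alpha subunit gene Inha, at a mean of 861 CPM per kilobase. Of the oocyte markers, 20 of 24 were tested, and Gdf9 was the most abundant per kilobase. They summed to 1764, 445 and 408 CPM in ob/ob and 2033, 545 and 175 CPM in CT ob. Thus obHOM_106 and obHet_60, 1 library of each group, held more oocyte RNA than the others. Oocyte markers were the most abundant of another cell type in obHOM_106, obHOM_41 and obHet_60. In obHOM_50, obHet_65 and obHet_68 luteal markers, described below, summed higher. Theca markers (4 of 8 tested, led by Cyp17a1) summed to 101, 101 and 117 CPM in ob/ob and 81.4, 107 and 145 CPM in CT ob. Their defining gene Insl3 had 1, 1 and 4 counts in ob/ob and 0, 0 and 0 counts in CT ob. Stromal fibroblast markers (8 of 11 tested, led by Ogn) summed to 61.2, 33.7 and 58.9 CPM in ob/ob and 32.3, 149.5 and 55.2 CPM in CT ob. Smooth muscle and pericyte markers (4 of 10 tested, led by Acta2) summed to 29.3, 11.1 and 18.5 CPM in ob/ob and 17.3, 62.8 and 35.1 CPM in CT ob. Endothelial markers (4 of 14 tested, led by Cldn5) summed to 18.9, 17.0 and 21.1 CPM in ob/ob and 35.4, 105 and 36.8 CPM in CT ob. In these non-granulosa lists of the follicle wall obHet_65 stood highest, apart from the theca list. Macrophage and leukocyte markers (2 of 18 tested, led by Cd68) summed to 13.7, 4.87 and 13.6 CPM in ob/ob and 5.96, 31.5 and 23.3 CPM in CT ob, with Itgam at 0 in all 6 libraries. Surface epithelium markers (3 of 11 tested, led by Krt8) summed to 43.8, 35.8 and 58.7 CPM in ob/ob and 66.7, 37.3 and 70.5 CPM in CT ob. Oviduct markers (1 of 6 tested, led by Tekt1) summed to 11.7, 8.49 and 10.1 CPM in ob/ob and 5.39, 7.31 and 15.3 CPM in CT ob. Erythroid markers (1 of 6 tested) summed to 18.4, 82.3 and 25.6 CPM in ob/ob and 21.0, 6.81 and 13.2 CPM in CT ob, nearly all of it from Alas2, and the globin genes Hba-a1 and Hba-a2 were at 0 in all 6 libraries. Adipocyte markers (1 of 8 tested) summed to 196, 166 and 186 CPM in ob/ob and 134, 173 and 126 CPM in CT ob, nearly all of it from Lpl, with Retn at 0 in all 6 libraries.

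No gene separated the groups among oocyte, smooth muscle, macrophage, surface epithelium, oviduct, erythroid and adipocyte markers, and among theca markers 1 did, lying higher in ob/ob. The median log2 fold change of theca markers was -0.10 and ran from -0.43 without obHet_60 to 0.10 without obHet_65. In the lists with fewer than 4 tested genes it was -0.60 for macrophage markers, which turned to 0.23 without obHet_65, -0.32 for surface epithelium, 0.58 for Tekt1 of the oviduct, 1.64 for Alas2, which was 0.71 without obHOM_41, and 0.34 for Lpl. The surface epithelium median ran from -0.62 without obHet_65 to -0.13 without obHet_60. In these bulk libraries, fewer cells of a type and less RNA per cell cannot be told apart.

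In ob/ob, many genes that mark GCs lay higher, Gja1 and Fshr among them, and so did genes of cohesin, DNA repair and the Zfp zinc finger series. Genes of the basement membrane, proteoglycans, actin filaments and the nuclear lamina lay lower. Lists for ribosomal proteins, nuclear genes of respiration, cholesterol and glycolysis had no direction that held without each library. No single gene passed the quasi-likelihood test of edgeR, however. It called 0 of 12425 genes (0%) at an adjusted p of 0.05 or less, and limma-voom also called 0. When every gene with at least 1 count was tested, edgeR called 359 of 32006, a set with many genes too low for the main filter. At an unadjusted p under 0.05, 592 genes (4.76%) lay higher and 422 (3.40%) lower in ob/ob, and their edgeR adjusted p-values ran from 0.539 to 0.611. The higher genes made up 58.4% of them, or 68.5% when libraries were scaled by size alone. DESeq2 called 86 genes (0.692%). In 85 of these the libraries of the groups did not overlap, for which an exact permutation test of 3 against 3 libraries can return no p below 0.1. The libraries did not overlap in 1000 genes higher in ob/ob (8.05%) and 948 genes lower (7.63%), and these shares are the background for the counts of each gene list. The median log2 fold change over all tested genes was -0.04. Below, the words higher and lower compare levels and do not mark a gene that passed the edgeR test. Most genes named below had the smallest p of their list. That choice by itself favours groups that lie apart and vary little, so their steadiness does not describe the list.

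Genes higher in ob/ob peaked mostly in obHOM_41, and genes lower in ob/ob mostly in obHet_68. Of the 592 higher genes, 367 had their highest ob/ob level in obHOM_41, 163 in obHOM_106 and 62 in obHOM_50, beside 4716, 4078 and 3631 of all 12425 tested genes. The highest library held a median of 39.7% of the group's summed CPM, near the 39.5% over all tested genes. In 22 of these genes it held at least 2 parts in 3, and in all 22 it was obHOM_41, beside 289 of all tested genes, of which 173 had it in obHOM_106 and 74 in obHOM_41. Of the 422 genes lower in ob/ob, 231 had their highest control level in obHet_68, 102 in obHet_60 and 89 in obHet_65, beside 5148, 3945 and 3332 of all tested genes, and the median share was 42.1%, near the 41.3% over all tested genes. In 16 of these genes 1 control library held at least 2 parts in 3, namely obHet_65 in 10 and obHet_68 in 6, beside 489 of all tested genes, of which 90 had it in obHet_65, 178 in obHet_68 and 221 in obHet_60. An unadjusted p under 0.05 remained without each of the 6 libraries in turn for 165 of the higher genes (27.9%) and 109 of the lower genes (25.8%). Without obHOM_41 the higher genes numbered 355 in place of 592 and the lower genes 259 in place of 422.

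The calls of DESeq2 depended on single libraries as well. Without obHOM_41, DESeq2 called 16 genes, and without obHet_60 it called 32, without obHOM_106 55, without obHet_65 75, without obHOM_50 89 and without obHet_68 92. Of the 86 genes called with all libraries, 10 were called without each library in turn. Those higher in ob/ob were Colgalt2, Fam81a, Klhl23, Tex15 and Tnks, and those lower were Apoa1, Dapk2, Elovl2, Mical2 and Plxna2. A further 5 of the 86 were called in none of these smaller fits. The edgeR adjusted p-values of all 86 lay between 0.539 and 0.555.

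Where 1 library alone stood out, it was mostly one of obHOM_41, obHet_65 and obHet_68. A level at least 4 times that of the next library was found in 26 tested genes for obHOM_41, 16 for obHet_65, 27 for obHet_68 and 1 for obHet_60, and in 0 for obHOM_106 and obHOM_50. Grem1, which encodes the secreted BMP antagonist gremlin, measured 3.16, 38.8 and 2.84 CPM in ob/ob and 0.769, 1.51 and 0.694 CPM in CT ob. Its level in obHOM_41 was 12.3 times that of the next library, although the other ob/ob libraries also lay above the controls. The log2 fold change of Grem1 was 3.88 (standard error 1.16) and 1.56 without obHOM_41. Loxl2, a lysyl oxidase that crosslinks collagen, measured 9.47, 91.3 and 6.18 CPM in ob/ob and 4.62, 7.31 and 0.694 CPM in CT ob. Its fold change of 3.03 (standard error 1.10) became 0.85 without obHOM_41, and obHOM_50 lay below obHet_65. The transporter gene Abcc2 measured 3.16, 60.7 and 1.98 CPM in ob/ob and 2.89, 1.77 and 5.90 CPM in CT ob. Its fold change of 2.68 (standard error 1.25) turned to -0.43 without obHOM_41.

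In the controls, obHet_65 stood far above the other libraries in Sfrp4, Igfbp7 and Ccn2, among others. Sfrp4, which encodes a secreted frizzled-related protein and is a luteal marker, measured 1.93, 0.139 and 0.618 CPM in ob/ob and 1.73, 200.5 and 4.16 CPM in CT ob. Its level in obHet_65 was 48.1 times that of the next library, and the other controls lay within reach of obHOM_106. The fold change of Sfrp4 was -6.33 (standard error 1.84), and -1.70 without obHet_65 and -7.38 without obHOM_106. Igfbp7, an insulin-like growth factor binding protein gene, measured 8.24, 0.975 and 4.94 CPM in ob/ob and 2.31, 73.4 and 1.74 CPM in CT ob. Its fold change of -2.46 (standard error 1.33) turned to 1.19 without obHet_65, and was -3.10 without obHOM_106. Ccn2, which encodes a matrix-associated growth factor, measured 21.4, 2.09 and 8.03 CPM in ob/ob and 4.04, 162 and 5.90 CPM in CT ob. The fold change of Ccn2 was -2.46 (standard error 1.34), 1.09 without obHet_65 and -3.48 without obHOM_106. In obHet_60 the single gene was the protease gene Adamts16, at 5.08, 0 and 2.22 CPM in ob/ob and 21.4, 4.79 and 1.39 CPM in CT ob, and most of the 27 genes of obHet_68 were predicted genes without a symbol.

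The libraries also differed in composition. The most abundant gene, annotated as 18S ribosomal RNA, took 1.45%, 1.30% and 9.12% of counts in ob/ob and 6.89%, 6.0% and 24.5% in CT ob. The 100 most abundant genes took 20.8%, 22.6% and 29.0% in ob/ob and 23.7%, 24.3% and 40.2% in CT ob. Mitochondrial transcripts took 5.42%, 6.88% and 6.0% in ob/ob and 4.47%, 4.86% and 3.25% in CT ob. The mitochondrial share was higher in every ob/ob library than in every control, and so was the total of counts. In the other measures of composition the groups overlapped, and obHet_68 was the highest library. After downsampling to the smallest library edgeR called 0 genes, with 563 higher and 408 lower at an unadjusted p under 0.05. Without the most abundant gene edgeR called 0 genes, with 606 higher and 405 lower at an unadjusted p under 0.05, and without obHet_68 it called 0, with 618 higher and 408 lower. What part composition, including the mitochondrial share that moved with genotype, had in the lists below was not tested.

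To describe pathways and families, 55 gene lists were used, of which 50 had at least 4 tested genes. Together the lists held 2412 genes, and 1814 of them were tested. The median log2 fold change of a list kept its sign without each library in turn in 22 of the 50 lists and turned without at least 1 library in 28. It turned in 16 lists without obHet_68, in 11 without obHOM_41, in 11 without obHet_65, in 10 without obHOM_106, in 8 without obHet_60 and in 5 without obHOM_50. Of the 22 lists that kept their sign, 4 turned when a pair of libraries was left out, a setting chosen after seeing the data. They were smooth muscle markers, BMP and TGF-beta genes, leptin and JAK-STAT genes, and Hox genes. Another scaling turned the median in 11 lists, but the median over all tested genes moved too, to 0.04 with library size alone and -0.05 with upper quartile scaling, so lists with medians near 0 turn with it.

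**Figure D1:**
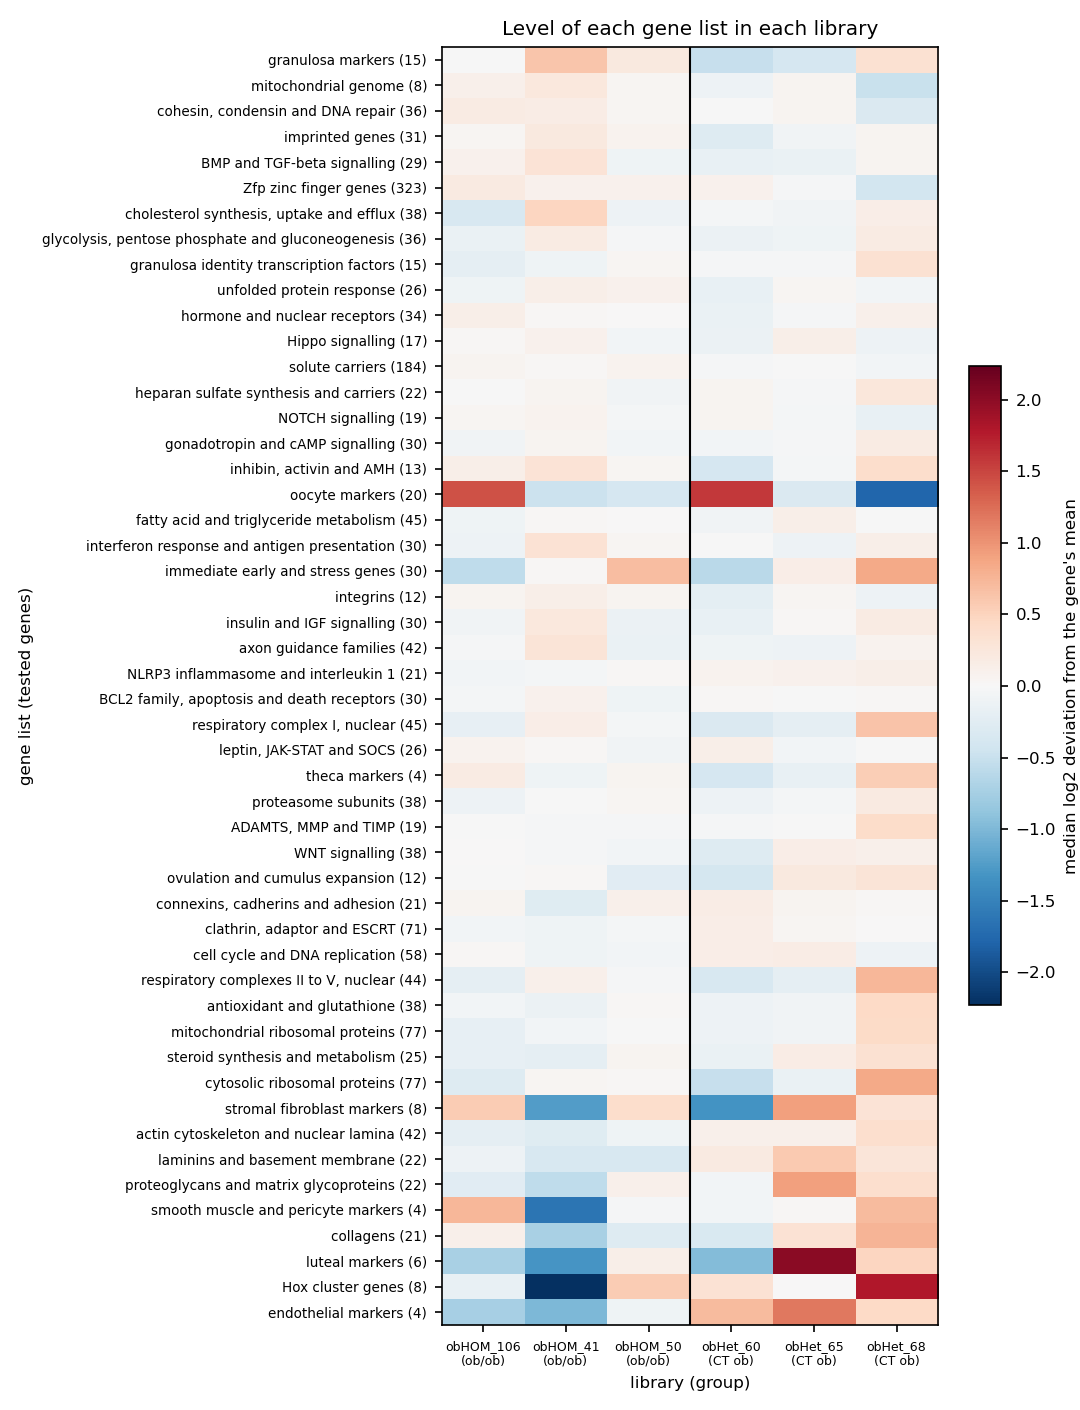
Level of the 50 gene lists with at least 4 tested genes (vertical axis, number of tested genes in brackets) in each of the 6 libraries (horizontal axis). Colour gives the median over the list's genes of the log2 deviation from the gene's mean over the 6 libraries, and the deepest colours include Hox genes in obHOM_41 and obHet_68, luteal markers in obHet_65, and oocyte markers in obHet_68, obHOM_106 and obHet_60.

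**Figure D2:**
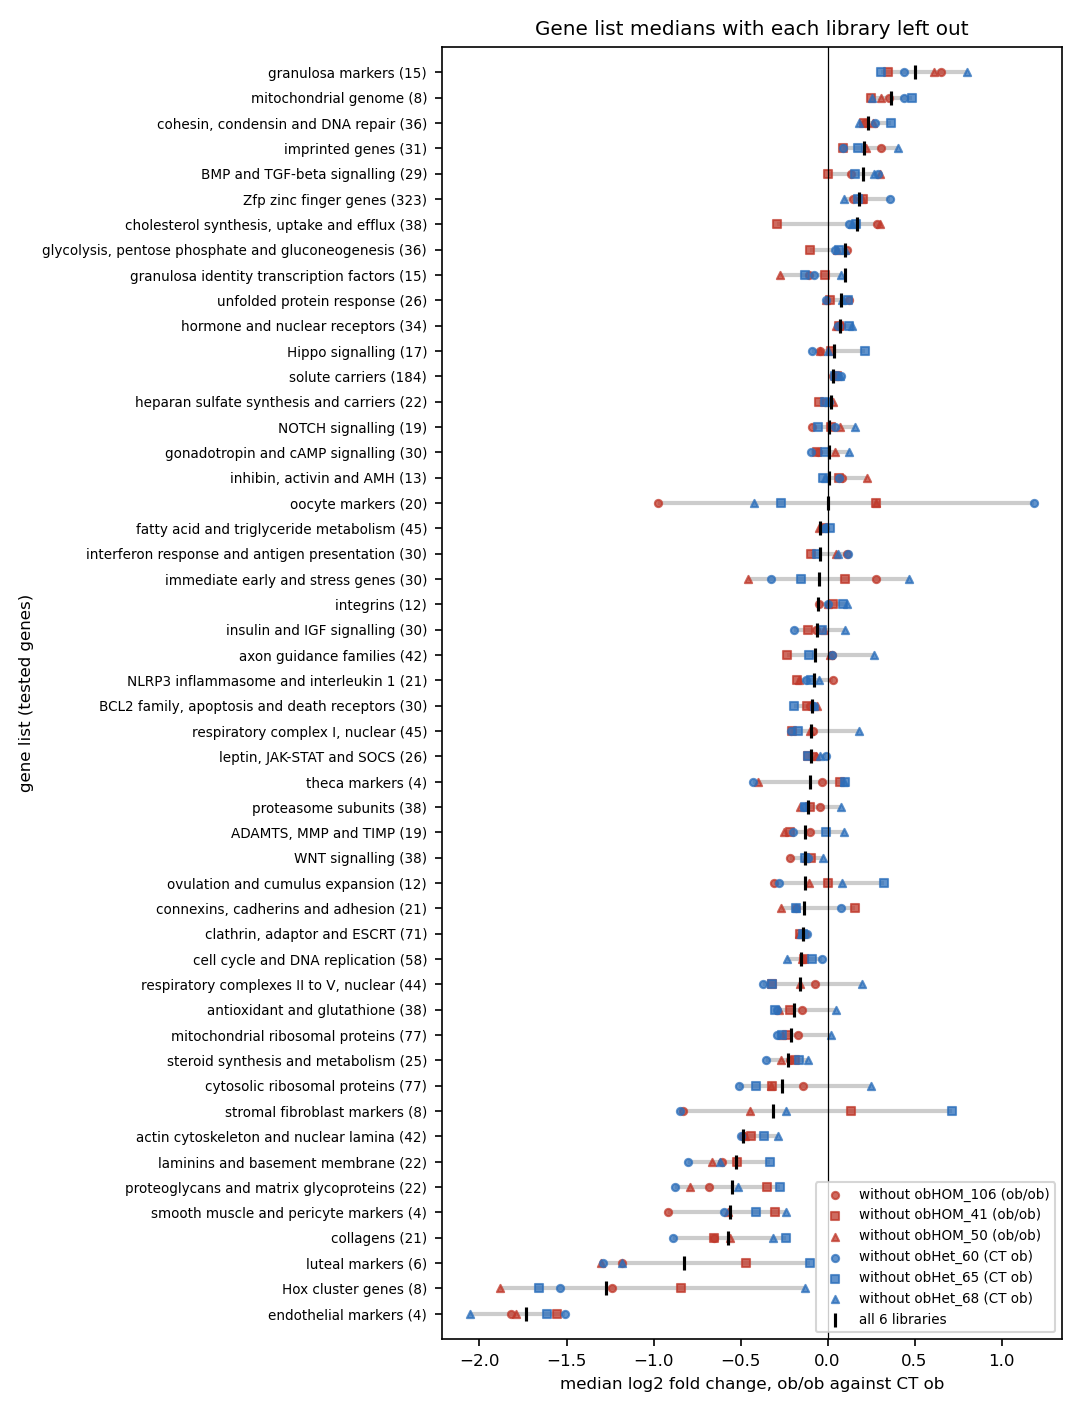
Median log2 fold change of ob/ob against CT ob (horizontal axis) for the same 50 gene lists (vertical axis). The black bar marks the value with all 6 libraries and each coloured point the value without 1 library, red for ob/ob and blue for CT ob. A list whose points cross 0 has no direction that holds without each library, and lists with medians near 0 cross it with small shifts.

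Most GC markers lay higher in ob/ob. Of 15 tested, 11 had a positive and 4 a negative fold change, 5 had every ob/ob library above every control and 0 the reverse, beside 8.05% and 7.63% of all tested genes, and 6 had an unadjusted p under 0.05, all higher. The median of the list was 0.50, beside -0.04 for all genes, and ran from 0.31 without obHet_65 to 0.80 without obHet_68. It was 0.16 without obHOM_41 and obHet_65. Gja1, the connexin gene, measured 10471, 10526 and 12307 CPM in ob/ob and 5741, 7018 and 5680.0 CPM in CT ob. All ob/ob libraries lay above all controls with little spread on either side. The log2 fold change was 0.85 (standard error 0.22), it ran from 0.77 to 0.97 with each library left out, and Gja1 was the 1 GC marker that DESeq2 called, as it did in 4 of the 6 fits with a library left out.

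The receptor for follicle-stimulating hormone followed the same order. Fshr measured 137, 181 and 199 CPM in ob/ob and 36.5, 121 and 92.7 CPM in CT ob, so the highest control, obHet_65, lay just below the lowest ob/ob library. Its fold change was 1.05 (standard error 0.39) and ran from 0.69 to 1.43 with each library left out. Cyp19a1 measured 18.2, 84.1 and 32.9 CPM in ob/ob and 10.6, 17.9 and 16.7 CPM in CT ob. The groups did not overlap, but obHOM_41 held 62.2% of the ob/ob level, and the fold change of 1.59 (standard error 0.53) became 0.78 without it. Oestrogen receptor beta, Esr2, measured 360.2, 509 and 341 CPM in ob/ob and 296, 253 and 280.1 CPM in CT ob, a fold change of 0.55 (standard error 0.21) with no overlap. Follistatin, Fst, which binds activins, measured 928, 2156 and 921 CPM in ob/ob and 630.0, 596 and 741 CPM in CT ob. Here too the groups did not overlap, and obHOM_41 was the high library, with a fold change of 1.03 (standard error 0.35) that became 0.50 without it.

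The size of the difference in the activin subunits depended on single libraries. Inhba measured 61.4, 1529 and 262 CPM in ob/ob and 24.0, 53.5 and 176 CPM in CT ob. A single library, obHOM_41, stood far above the rest, and obHet_68 lay above obHOM_106. The fold change of 2.88 (standard error 1.13) was 0.96 without obHOM_41 and 4.0 without obHet_68. Inhbb measured 359, 2332 and 559 CPM in ob/ob and 138, 86.7 and 734 CPM in CT ob. The same library was highest, and obHet_68 exceeded obHOM_106 and obHOM_50. Its fold change of 1.77 (standard error 0.92) was 0.54 without obHOM_41 and 3.27 without obHet_68. Inha, the alpha subunit they share in inhibins, measured 5382, 8054 and 6801 CPM in ob/ob and 3586, 3294 and 7383 CPM in CT ob, with overlap through obHet_68. Amh, anti-Müllerian hormone, measured 657, 58.9 and 514 CPM in ob/ob and 446, 741 and 582 CPM in CT ob, and obHOM_41 was the low library. The whole list of inhibin, activin and AMH genes (13 tested) had a median of 0.01, which ran from -0.02 without obHet_65 to 0.22 without obHOM_50 and was -0.01 with upper quartile scaling. Transcription factors of GC identity (15 tested) had a median of 0.10, which turned without each library except obHet_68 (-0.27 without obHOM_50 to 0.08 without obHet_68). Foxl2, the factor that maintains GC fate, measured 91.7, 98.7 and 66.1 CPM in ob/ob and 95.8, 103 and 146 CPM in CT ob, a fold change of -0.43 (standard error 0.24) with overlapping groups. Wt1, a zinc finger factor of early follicles, measured 91.7, 11.1 and 55.2 CPM in ob/ob and 266, 249 and 117 CPM in CT ob. Every ob/ob library lay below every control, by a fold change of -2.0 (standard error 0.65) that was -2.66 without obHOM_106.

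Gonadotropin and cAMP signalling genes showed no common direction. Of 30 tested, 2 lay higher and 2 lower without overlap, and the median of 0.01 became -0.01 with upper quartile scaling and ran from -0.10 without obHet_60 to 0.12 without obHet_68. Among genes of steroid synthesis and metabolism (25 tested), 2 had an unadjusted p under 0.05 and lay higher and 2 lower, with a median of -0.23 (-0.35 without obHet_60 to -0.11 without obHet_68). Star, which carries cholesterol into mitochondria, measured 8.24, 3.20 and 4.20 CPM in ob/ob and 6.92, 24.2 and 21.2 CPM in CT ob. Its levels were low, with overlap between obHOM_106 and obHet_60, and the fold change was -1.74 (standard error 0.56). Hsd17b3 and Cyp1b1, which act on androgens and oestrogens, had fold changes of -0.66 (standard error 0.58) and -0.51 (standard error 0.25), both with overlapping groups.

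Luteal markers (6 of 7 tested, led per kilobase by Hsd3b1) summed to 307, 278 and 1043 CPM in ob/ob and 225, 892 and 1369 CPM in CT ob. High and low libraries occurred in both groups, and 0 genes lay higher and 1 lower without overlap. The median was -0.83 and -0.10 without obHet_65, the library in which Akr1c18 and Sfrp4 were highest. Akr1c18, which inactivates progesterone, measured 0.351, 0.139 and 1.61 CPM in ob/ob and 3.65, 31.0 and 4.16 CPM in CT ob. Every control lay above every ob/ob library, and obHet_65 held 79.9% of the control level. The fold change of -4.11 (standard error 1.10) was -2.39 without obHet_65 and -5.64 without obHOM_50. DESeq2 called Akr1c18 with all libraries and in 3 of the 6 fits with 1 left out. As it resembles other Akr1c genes and the handling of shared reads is not stated, its counts are uncertain. Of the 12 tested genes of ovulation and cumulus expansion, 2 had an unadjusted p under 0.05 and lay lower and 0 higher, and the list median of -0.13 ran from -0.31 without obHOM_106 to 0.33 without obHet_65 and was 0.34 with at least 10 counts in every library. The genes concerned were Vcan, described with the matrix, and the prostaglandin E2 receptor gene Ptger2. Ptger2 measured 3.33, 2.65 and 2.22 CPM in ob/ob and 13.3, 7.06 and 5.55 CPM in CT ob, a fold change of -1.67 (standard error 0.47) without overlap.

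Genes of the extracellular matrix lay lower in ob/ob. Of 22 tested laminin and basement membrane genes, 21 had a negative and 1 a positive fold change, 7 lay lower and 0 higher without overlap, and 8 had an unadjusted p under 0.05 and were lower. DESeq2 called 3 of them. The median was -0.53 and ran from -0.80 without obHet_60 to -0.33 without obHet_65, or -0.98 without obHOM_106 and obHet_60, while the summed level was 1138, 946 and 984 CPM in ob/ob and 1765, 1546 and 1505 CPM in CT ob, with every control above every ob/ob library. Dag1, dystroglycan, which anchors cells to laminin and was the most abundant per kilobase, measured 694, 482 and 621 CPM in ob/ob and 970.3, 725 and 863 CPM in CT ob. The groups were close but did not overlap, with a fold change of -0.51 (standard error 0.22).

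Collagen IV, the network collagen of basement membranes, was low in all ob/ob libraries and most abundant in obHet_65. Col4a1 measured 3.51, 0.278 and 3.34 CPM in ob/ob and 5.19, 70.9 and 16.3 CPM in CT ob. Its fold change of -3.69 (standard error 1.05) was -2.15 without obHet_65. Its partner Col4a2 measured 1.93, 1.25 and 1.85 CPM in ob/ob and 5.39, 48.2 and 8.33 CPM in CT ob and had a fold change of -3.61, or -2.0 without obHet_65. Thus the groups stayed apart in both genes, but the size of the difference rested largely on obHet_65. Col18a1, the source of endostatin, measured 3.86, 0 and 1.36 CPM in ob/ob and 24.6, 19.7 and 6.25 CPM in CT ob. The control libraries differed among themselves, and the fold change of -3.32 (standard error 1.0) ran from -4.55 without obHOM_106 to -2.73 without obHOM_41. Col12a1, a fibril-associated collagen, measured 4.38, 3.62 and 3.46 CPM in ob/ob and 14, 7.82 and 11.1 CPM in CT ob, a fold change of -1.52 (standard error 0.38) that ran from -1.72 to -1.29. Sparc, a collagen-binding matrix protein gene, measured 43.3, 95.1 and 21.5 CPM in ob/ob and 232, 169 and 149.9 CPM in CT ob. Every control lay above every ob/ob library, by a fold change of -1.79 (standard error 0.48) that was -2.51 without obHOM_41.

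Over all collagens, 21 of 44 genes were tested, 5 lay lower and 1 higher without overlap, and DESeq2 called 3 lower. Of these, 4 had a positive and 17 a negative fold change. The median was -0.57 and ran from -0.89 without obHet_60 to -0.24 without obHet_65. It was -1.19 without obHOM_106 and obHet_60, but -0.06, near that of all genes, where only genes with at least 10 counts in every library were tested. The collagen higher without overlap was Col11a1, of the fibrillar type, at 21.2, 25.3 and 18 CPM in ob/ob and 3.46, 6.81 and 13.9 CPM in CT ob. It had a fold change of 1.45 that was 2.08 without obHet_68. The most abundant collagen gene per kilobase, Col9a2, measured 47.5, 6.96 and 48.8 CPM in ob/ob and 16.0, 27.7 and 55.2 CPM in CT ob and did not separate the groups.

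Proteoglycans and matrix glycoproteins (22 tested, 18 negative and 4 positive) had 6 genes lower and 0 higher without overlap, 7 with an unadjusted p under 0.05, all lower, and 3 DESeq2 calls. Their median of -0.55 ran from -0.88 without obHet_60 to -0.27 without obHet_65, and was -1.06 without obHOM_106 and obHet_60 and -0.19 without obHOM_41 and obHet_65. Vcan, versican, a large hyaluronan-binding proteoglycan of the cumulus matrix, measured 240.3, 346 and 282 CPM in ob/ob and 578, 485 and 504 CPM in CT ob. The controls were close to each other and all above ob/ob, with a fold change of -0.85 (standard error 0.20) that ran from -1.0 to -0.73. Tnxb, tenascin XB, measured 0.351, 0.278 and 0.741 CPM in ob/ob and 2.69, 3.28 and 5.90 CPM in CT ob, with obHOM_106 and obHOM_41 below the floor and a fold change of -3.0 (standard error 0.65). Bgn, the small proteoglycan biglycan, measured 4.03, 1.81 and 2.1 CPM in ob/ob and 4.62, 26.0 and 10.8 CPM in CT ob, a fold change of -2.38 (standard error 0.67) that was -1.52 without obHet_65. The matrix lists share 8 tested genes, among them Col4a1, Col4a2, Col18a1 and Sparc. With each gene counted 1 time they held 57 tested genes, 14 lower and 1 higher without overlap, and 6 called lower by DESeq2. Summed levels of the proteoglycan list did not follow the groups, at 1340.4, 2366 and 1889 CPM in ob/ob and 2344, 2035 and 2225 CPM in CT ob. The most abundant member per kilobase, Thbs1, was highest in obHOM_41.

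Matrix enzymes and receptors were mixed. Of 19 tested ADAMTS, MMP and TIMP genes, 3 lay higher and 3 lower without overlap, with a median of -0.13 (-0.25 without obHOM_50 to 0.10 without obHet_68). Timp1, an inhibitor of matrix metalloproteinases, measured 13, 15.7 and 18.5 CPM in ob/ob and 25.2, 36.1 and 53.1 CPM in CT ob, a fold change of -1.26 (standard error 0.32). In contrast, the protease gene Adamts6 measured 67.1, 83.8 and 55.5 CPM in ob/ob and 27.9, 44.1 and 25 CPM in CT ob, a fold change of 1.09 (standard error 0.27). Neither gene overlapped between groups. Heparan sulfate genes (22 tested) had 1 higher and 2 lower without overlap and a median of 0.02 (-0.05 without obHOM_41 to 0.03 without obHOM_50). Integrins (12 tested) had 3 higher and 1 lower and a median of -0.06, which was 0.03 with library size alone, -0.29 after downsampling and ran from -0.05 without obHOM_106 to 0.11 without obHet_68. Itga2, an integrin subunit for collagen, measured 38.9, 273 and 45.6 CPM in ob/ob and 23.7, 24.2 and 16.0 CPM in CT ob, with 76.3% of the ob/ob level in obHOM_41 and a fold change of 2.47 (standard error 0.73) that was 0.98 without it.

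Vessel and stroma cells also express matrix genes, and the endothelial markers tested lay lower in ob/ob while stromal markers were mixed. All 4 endothelial markers tested had a negative fold change, with a median of -1.73 (-2.05 without obHet_68 to -1.51 without obHet_60). It was smaller in other settings, at -0.83 with at least 10 counts in every library, -0.91 in 1 fit of all 14 libraries and -1.05 after downsampling to the smallest library. Ptprb, an endothelial phosphatase, measured 1.23, 0.139 and 2.1 CPM in ob/ob and 7.12, 13.1 and 5.55 CPM in CT ob, a fold change of -2.86 (standard error 0.76) that was -3.67 without obHOM_50. Kdr, the VEGF receptor, measured 1.93, 2.23 and 0.741 CPM in ob/ob and 17.5, 8.32 and 2.43 CPM in CT ob, a fold change of -2.55 (standard error 0.74) that was -1.74 without obHet_60. In both the groups did not overlap, at levels near the floor in ob/ob. The expression filter can admit a gene through its higher group alone, as it did Ptprb, and Tnxb of the matrix, through the controls. The direction of such tested members was thus partly fixed by the filter. The stromal list had 3 positive and 5 negative fold changes, 0 genes higher and 1 lower without overlap, and a median of -0.31, but 0.72 without obHet_65 and 0.14 without obHOM_41. The gene without overlap was Pdgfra, the PDGF receptor alpha of stroma and theca precursors, which measured 3.68, 3.20 and 5.07 CPM in ob/ob and 18.3, 12.9 and 11.1 CPM in CT ob, a fold change of -1.82 (standard error 0.38) that ran from -2.03 to -1.58. Smooth muscle markers had a median of -0.56 (-0.92 without obHOM_106 to -0.24 without obHet_68), which turned to 0.06 without obHOM_41 and obHet_65. Without obHet_65, the library highest in these markers, the medians were -0.33 for laminins and basement membrane, -0.27 for proteoglycans and -0.24 for collagens. The endothelial median was still -1.61 without obHet_65, so these values do not show the matrix lists without the endothelial difference. The part of other cell types in the matrix result was not tested further.

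Genes of the actin cytoskeleton and nuclear lamina also lay lower in ob/ob. Of 42 tested, 35 had a negative and 7 a positive fold change, 13 lay lower and 2 higher without overlap, 11 had an unadjusted p under 0.05, all lower, and DESeq2 called 5. The median was -0.49 and ran from -0.50 without obHet_60 to -0.28 without obHet_68. Lmna, which encodes the A-type lamins of the nuclear envelope, measured 40.1, 29.5 and 30.2 CPM in ob/ob and 72.1, 70.1 and 77.7 CPM in CT ob. Both groups were tight and far apart, with a fold change of -1.14 (standard error 0.20) that ran from -1.29 to -1.06. Septin9, a filament-forming GTPase gene, measured 25.2, 15.7 and 21.4 CPM in ob/ob and 66.6, 39.1 and 78.1 CPM in CT ob, a fold change of -1.56 (standard error 0.31). Mical2, an actin-oxidising enzyme gene, measured 10.5, 9.89 and 10.9 CPM in ob/ob and 44.8, 74.6 and 20.5 CPM in CT ob, a fold change of -2.16 (standard error 0.43). The tropomyosin gene Tpm1 measured 66.6, 43.6 and 65.5 CPM in ob/ob and 116, 115 and 164 CPM in CT ob, a fold change of -1.17 (standard error 0.24). In all of them, named for their small p, every control lay above every ob/ob library. Without any 1 library the fold change moved by less than 1.5 times. Beta-actin itself, Actb, the most abundant of the list per kilobase, measured 2549, 3616 and 2918 CPM in ob/ob and 2357, 2831 and 3697 CPM in CT ob and did not separate the groups. Summed levels were 5391, 6468 and 5989 CPM in ob/ob and 5712, 6534 and 7803 CPM in CT ob.

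Genes for chromosome structure and DNA repair lay higher in ob/ob. Of 36 tested cohesin, condensin and repair genes, 25 had a positive and 11 a negative fold change, 13 lay higher and 2 lower without overlap, 9 had an unadjusted p under 0.05, all higher, and DESeq2 called 3. The median of 0.23 ran from 0.18 without obHet_68 to 0.36 without obHet_65. Wapl, which releases cohesin from DNA, measured 284, 261 and 189 CPM in ob/ob and 115, 125 and 121 CPM in CT ob. The controls lay close together and below all ob/ob libraries, with a fold change of 1.02 (standard error 0.20). Rif1, a factor of replication timing and break repair, measured 318, 275 and 251 CPM in ob/ob and 166, 176 and 166 CPM in CT ob, a fold change of 0.73 (standard error 0.18). The kinase gene Atm, a sensor of DNA breaks, measured 64.2, 72.5 and 46.3 CPM in ob/ob and 33.7, 40.6 and 29.2 CPM in CT ob, a fold change of 0.82 (standard error 0.24). The condensin subunit Smc4, the most abundant of the list per kilobase, measured 989, 776 and 702 CPM in ob/ob and 437, 599.9 and 387 CPM in CT ob, a fold change of 0.79 (standard error 0.24). All had groups without overlap and moved by less than 1.5 times without any 1 library. Tex15, known from meiotic recombination and transposon silencing in male germ cells, measured 1090.3, 1357 and 567 CPM in ob/ob and 172, 297 and 217 CPM in CT ob, with obHOM_50 the lowest ob/ob library.

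Cell cycle and replication genes as a list did not share that direction. Of 58 tested, 2 lay higher and 9 lower without overlap, with a median of -0.16 (-0.23 without obHet_68 to -0.03 without obHet_60). Knl1, a kinetochore scaffold gene, measured 259, 220.3 and 144 CPM in ob/ob and 89.4, 109 and 63.5 CPM in CT ob. It lay higher in ob/ob without overlap, with a fold change of 1.25 (standard error 0.28). Cyclin D2, Ccnd2, the most abundant of the list per kilobase, measured 2148, 1909 and 1249 CPM in ob/ob and 1687, 1233 and 2153 CPM in CT ob and did not separate the groups.

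Zinc finger genes of the Zfp series, most of them likely transcription factors, formed the largest list. Of 323 tested, 208 had a positive and 115 a negative fold change, 56 lay higher and 15 lower without overlap, and 34 against 2 had an unadjusted p under 0.05. DESeq2 called 5, all higher. The median of 0.18 ran from 0.09 without obHet_68 to 0.36 without obHet_60. Zfp950 measured 154, 145 and 146 CPM in ob/ob and 92.7, 77.4 and 76.4 CPM in CT ob, a fold change of 0.85 (standard error 0.17). Zfp277 measured 478, 486 and 380.1 CPM in ob/ob and 233, 269 and 235 CPM in CT ob, a fold change of 0.87 (standard error 0.19). Zfp1007 measured 50.3, 66.0 and 47.7 CPM in ob/ob and 26.5, 16.4 and 12.8 CPM in CT ob, a fold change of 1.54 (standard error 0.30). In these genes, named for their small p, the groups were well apart and no single library carried the difference. Such a choice by itself favours groups of this kind. A gene in the other direction was Zfp503, at 2.45, 1.81 and 2.1 CPM in ob/ob and 5.39, 8.07 and 10.8 CPM in CT ob, with a fold change of -1.91 (standard error 0.45). Many Zfp genes resemble each other and could share reads. Summed over the list, levels were 10593, 10051 and 9607 CPM in ob/ob and 9233, 8333 and 7125 CPM in CT ob, with obHet_68 the lowest.

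The fold change varied with exon length, and obHet_68 moved mainly the genes with short exons. Over 5 equal bins of exon length, from the shortest to the longest, the median log2 fold change was -0.10, -0.07, -0.06, -0.03 and 0.08, but without obHet_68 it was 0.03, -0.01, -0.04, -0.03 and 0.06. The median of the longest bin stayed positive without each library, from 0.04 without obHOM_41 to 0.12 without obHet_65. Genes higher without overlap made up 5.53% of the shortest bin and 12.2% of the longest, and genes lower without overlap 6.90% and 5.93%. The longest bin held 2478 of the 12425 tested genes and 14 of the 36 cohesin and repair genes, but 46 of the 323 Zfp genes, whose median exon length of 6387 bases was near the 6309.5 bases of all tested genes. It also held 12 of 42 actin genes, 8 of 22 laminin and basement membrane genes, 9 of 21 collagens and 7 of 22 proteoglycans, which lay lower. What part length had in these lists was not tested.

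BMP and TGF-beta signalling genes, which in the follicle connect oocyte and GCs, lay higher in part. Of 29 tested, 6 lay higher and 1 lower without overlap, 6 had an unadjusted p under 0.05, all higher, and DESeq2 called 2. The median of 0.21 was 0.00 without obHOM_41 and -0.07 without obHOM_41 and obHet_65. Bmpr2, the type II receptor, measured 624, 1345 and 537 CPM in ob/ob and 256, 388 and 328 CPM in CT ob. The highest library was obHOM_41, and the fold change of 1.37 (standard error 0.37) became 0.84 without it, still with no overlap. The ligand gene Bmp3 measured 228, 623 and 204 CPM in ob/ob and 67.3, 149 and 89.5 CPM in CT ob, a fold change of 1.79 (standard error 0.48) that was 1.08 without obHOM_41. Chrdl1, a secreted BMP antagonist like Grem1, measured 29.4, 29.5 and 17.4 CPM in ob/ob and 13.5, 7.56 and 14.9 CPM in CT ob, a fold change of 1.09 (standard error 0.35). Its high libraries were obHOM_106 and obHOM_41 alike.

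WNT genes stayed near the background. Of 38 tested, 3 lay higher and 3 lower without overlap, 7.89% each, beside 8.05% and 7.63% of all tested genes. Their median was -0.13 (-0.22 without obHOM_106 to -0.03 without obHet_68). Tnks, tankyrase, which marks axin for degradation, measured 543, 602 and 584 CPM in ob/ob and 322, 299 and 343 CPM in CT ob. The ob/ob libraries were close to each other and all above the controls, with a fold change of 0.84 (standard error 0.17). Dkk3, a secreted protein of the dickkopf family, measured 26.8, 25.6 and 25.1 CPM in ob/ob and 7.50, 11.3 and 14.2 CPM in CT ob, a fold change of 1.24 (standard error 0.30). In the other direction, the ligand gene Wnt4 measured 8.24, 3.48 and 2.84 CPM in ob/ob and 17.9, 17.1 and 61.1 CPM in CT ob. Every control lay above every ob/ob library, but obHet_68 held 63.6% of the control level, and the fold change of -2.72 (standard error 0.63) was -1.87 without it and -3.31 without obHOM_106. Wnt6 measured 1.05, 1.11 and 1.36 CPM in ob/ob and 3.27, 3.28 and 5.90 CPM in CT ob, a fold change of -1.78 (standard error 0.51) at low levels. NOTCH genes (19 tested) had 0 higher and 2 lower and a median of 0.01, which ran from -0.09 without obHOM_106 to 0.16 without obHet_68 and was -0.01 with upper quartile scaling. Hippo genes (17 tested) had 1 higher and 0 lower and a median of 0.04 (-0.09 without obHet_60 to 0.22 without obHet_65).

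Transcripts of leptin and JAK-STAT components stayed near the background, although transcript levels do not measure signalling through them. Of 26 tested genes of leptin, JAK-STAT and SOCS signalling, 1 lay higher and 2 lower without overlap, and the median was -0.09 (-0.11 without obHet_65 to -0.01 without obHet_60), or 0.06 without obHOM_106 and obHet_60. Jak1, a Janus kinase used by many cytokine receptors and the most abundant of the list per kilobase, measured 1042, 1462 and 1051 CPM in ob/ob and 765, 691 and 759 CPM in CT ob, a fold change of 0.68 (standard error 0.21) without overlap. Of 30 tested insulin and IGF genes, 4 lay higher (13.3%) and 1 lower (3.33%) without overlap, beside 8.05% and 7.63% of all tested genes. Their median of -0.06 was 0.03 with library size alone and ran from -0.19 without obHet_60 to 0.10 without obHet_68. The insulin receptor gene Insr measured 50.1, 66.4 and 45.8 CPM in ob/ob and 32.3, 52.7 and 71.2 CPM in CT ob, and the IGF1 receptor gene Igf1r measured 222, 410.1 and 245 CPM in ob/ob and 252, 299.8 and 375 CPM in CT ob. Both overlapped between groups.

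Inflammasome and interleukin 1 genes (21 of 29 tested) had 0 members higher and 2 lower without overlap and 0 with an unadjusted p under 0.05. Their median of -0.08 became 0.05 with library size alone and ran from -0.17 without obHOM_41 to 0.03 without obHOM_106. Interferon response and antigen presentation genes (30 tested) had 2 higher and 1 lower and a median of -0.04, which was 0.04 with library size alone and ran from -0.10 without obHOM_41 to 0.12 without obHet_60. The class I gene H2-D1 measured 96.8, 127 and 60.7 CPM in ob/ob and 30.4, 36.8 and 50.0 CPM in CT ob. It lay higher in ob/ob without overlap, by a fold change of 1.29 (standard error 0.31), and near-identical class I genes could share its reads.

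Hormone and nuclear receptors (34 tested) had 4 higher and 4 lower without overlap and a median of 0.07 (0.05 without obHOM_50 to 0.14 without obHet_68). Ednrb, an endothelin receptor, measured 18.2, 73.9 and 11.6 CPM in ob/ob and 1.92, 8.83 and 3.12 CPM in CT ob. Its highest library was obHOM_41 with 71.2% of the ob/ob level, and the fold change of 2.90 (standard error 0.82) ran from 1.68 without obHOM_41 to 3.82 without obHet_65. Agtr2, the angiotensin II type 2 receptor, measured 4.38, 0.696 and 11.6 CPM in ob/ob and 48.1, 51.2 and 13.9 CPM in CT ob. It lay lower in ob/ob in all libraries, by a fold change of -2.75 (standard error 0.83) that was -3.93 without obHOM_50. Rara, a retinoic acid receptor, measured 20.7, 9.19 and 19 CPM in ob/ob and 36.2, 31.5 and 50.7 CPM in CT ob, a fold change of -1.27 (standard error 0.35) without overlap.

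Metabolic lists showed little common direction. In the cholesterol, fatty acid and glycolysis lists, counts without overlap lay near the 8.05% higher and 7.63% lower of all tested genes. Among cholesterol genes (38 tested), 3 lay higher and 3 lower without overlap, and the median of 0.17 turned to -0.29 without obHOM_41, the library with the highest summed level. Apoa1, the main protein of high-density lipoprotein, measured 84.3, 84.0 and 97.2 CPM in ob/ob and 225, 213 and 447 CPM in CT ob. The ob/ob libraries were nearly equal and below all controls, with a fold change of -1.74 (standard error 0.31) that ran from -1.92 to -1.31. Nceh1, a cholesteryl ester hydrolase, measured 139, 104 and 101 CPM in ob/ob and 57.3, 52.4 and 71.8 CPM in CT ob, a fold change of 0.92 (standard error 0.21). Fatty acid and triglyceride genes (45 tested) had 3 higher and 4 lower and a median of -0.04, which was 0.04 with library size alone and 0.02 without obHet_65. Elovl2, which lengthens polyunsaturated fatty acids, measured 12.4, 8.35 and 12.1 CPM in ob/ob and 32.3, 36.8 and 41.0 CPM in CT ob, lower in each ob/ob library. Dgat2, which makes triglycerides, measured 21.0, 60.7 and 23.1 CPM in ob/ob and 13.1, 10.3 and 9.02 CPM in CT ob. It lay higher without overlap, with 57.9% of the ob/ob level in obHOM_41 and a fold change of 1.68 (standard error 0.44) that was 1.02 without it. Mboat1, a lysophospholipid acyltransferase, measured 46.1, 47.2 and 32.6 CPM in ob/ob and 18.7, 21.7 and 20.8 CPM in CT ob, a fold change of 1.04 (standard error 0.23).

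Glycolysis, pentose phosphate and gluconeogenesis genes (36 tested) had 3 higher and 2 lower without overlap, and their median of 0.10 turned to -0.10 without obHOM_41. Fbp1, a gluconeogenic phosphatase, measured 32.6, 34.4 and 23.6 CPM in ob/ob and 10.6, 16.1 and 12.8 CPM in CT ob, a fold change of 1.20 (standard error 0.28). The monocarboxylate transporter gene Slc16a1 measured 249, 298 and 293 CPM in ob/ob and 197, 186 and 157 CPM in CT ob, a fold change of 0.64 (standard error 0.18). Pdp1, which activates pyruvate dehydrogenase, measured 23.1, 13.5 and 27.2 CPM in ob/ob and 60.6, 45.6 and 52.1 CPM in CT ob, a fold change of -1.31 (standard error 0.29). In these genes no library of the other group fell between. Solute carriers (184 tested) had 23 higher and 8 lower without overlap and a median of 0.03 (0.03 without obHOM_106 to 0.08 without obHet_60), or 0.11 with library size alone. The taurine transporter gene Slc6a6 measured 328, 684 and 251 CPM in ob/ob and 110.2, 174 and 138 CPM in CT ob, with obHOM_41 highest and a fold change of 1.58 (standard error 0.38) that ran from 1.04 to 1.85.

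The medians of nuclear-encoded translation and respiration genes turned without obHet_68. The 77 tested ribosomal protein genes of the cytosol had 0 higher and 0 lower without overlap. They summed to 26985, 33521 and 33574 CPM in ob/ob and 24060.1, 30161 and 57189 CPM in CT ob, so that obHet_68 alone stood high. Their median of -0.26 turned to 0.25 without obHet_68. Without that library the median also turned from -0.21 to 0.02 for mitochondrial ribosomal proteins (77 tested, 2 higher and 7 lower without overlap). For respiratory complex I (45 tested, 2 and 0) it turned from -0.09 to 0.18 and was 0.03 with library size alone. For complexes II to V (44 tested, 5 and 1) it turned from -0.16 to 0.20, and for proteasome subunits (38 tested, 6 and 1) from -0.11 to 0.08. For antioxidant and glutathione genes (38 tested, 0 and 4) it turned from -0.19 to 0.05. Of the last list, the glutathione transferase gene Gstm1 measured 82.7, 42.2 and 53.3 CPM in ob/ob and 129, 95.3 and 166 CPM in CT ob and Gstm2 144, 144 and 125 CPM in ob/ob and 304, 184 and 284 CPM in CT ob. Both lay lower in ob/ob without overlap, by -1.13 (standard error 0.30) and -0.90 (standard error 0.23), and as near-identical copies they could share reads. Transcripts of the mitochondrial genome summed to 37181, 29875 and 31548 CPM in ob/ob and 26619.9, 28286 and 17135 CPM in CT ob, with obHet_68 the lowest. Their median of 0.36 over 8 tested genes kept its sign without each library (0.25 without obHOM_41 to 0.49 without obHet_65), and was 0.25 without obHet_68.

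Adhesion and guidance lists had no direction that held without each library. Their counts without overlap stand beside 8.05% higher and 7.63% lower of all tested genes. Connexins, cadherins and other adhesion genes (21 tested) had 1 gene higher, Gja1, and 1 lower without overlap, and a median of -0.13 (-0.27 without obHOM_50 to 0.16 without obHOM_41). Axon guidance families (42 tested) had 4 higher and 5 lower and a median of -0.07 (-0.23 without obHOM_41 to 0.27 without obHet_68). Unc5b, a netrin receptor, measured 2.28, 1.25 and 1.73 CPM in ob/ob and 11.3, 4.79 and 18.7 CPM in CT ob, a fold change of -2.71 (standard error 0.58). The plexin gene Plxna2, a semaphorin receptor, measured 57.7, 26.7 and 37.8 CPM in ob/ob and 184, 147 and 124 CPM in CT ob, with every control above every ob/ob library. Semaphorin 5A, Sema5a, measured 412, 393 and 326 CPM in ob/ob and 189, 246 and 231 CPM in CT ob, a fold change of 0.76 (standard error 0.19) in the other direction. The ephrin gene Efna5 measured 83.4, 299 and 62.5 CPM in ob/ob and 34.8, 46.1 and 41.3 CPM in CT ob, with 67.2% of the ob/ob level in obHOM_41 and a fold change of 1.86 (standard error 0.55) that was 0.84 without it.

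Among developmental families, 8 of 39 Hox genes were tested. Their median of -1.27 was -0.13 without obHet_68 and turned to 0.35 without obHOM_41 and obHet_68, and they summed to 40.5, 10.3 and 55.9 CPM in ob/ob and 53.1, 57.2 and 178 CPM in CT ob. Hoxc6 measured 2.28, 0.696 and 2.1 CPM in ob/ob and 5.96, 7.82 and 8.68 CPM in CT ob, a fold change of -2.13 (standard error 0.53) without overlap. Hoxc10 had 1, 0 and 0 counts in ob/ob and 21, 7 and 9 counts in CT ob, and Hoxd11 had 0, 1 and 3 counts in ob/ob and 6, 30 and 8 counts in CT ob. Both lay at or below the floor in each ob/ob library and had too few counts to be tested. Imprinted genes (31 tested), which are read from 1 parental copy, had 4 higher and 0 lower without overlap and a median of 0.21 (0.09 without obHOM_41 to 0.41 without obHet_68). Plagl1, an imprinted zinc finger gene, measured 504, 477 and 365 CPM in ob/ob and 275, 230.5 and 314 CPM in CT ob, a fold change of 0.72 (standard error 0.21). Nap1l5, a nucleosome assembly protein gene, measured 546, 819.9 and 634 CPM in ob/ob and 217, 177 and 373 CPM in CT ob, a fold change of 1.38 (standard error 0.31) that ran from 1.19 to 1.76. Nap1l5 lies within Herc3, and the strand setting of the counting is not stated, so reads of the pair cannot be told apart. The pair lies 20 to 40 Mb from Lep, a range counted apart below.

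Genes of membrane traffic tilted lower. Of 71 tested clathrin, adaptor and ESCRT genes, 16 lay lower and 4 higher without overlap, while 4 higher and 2 lower genes had an unadjusted p under 0.05. The median was -0.14 (-0.16 without obHOM_50 to -0.12 without obHet_60) and -0.07 with library size alone. Cltb, a clathrin light chain, measured 14.2, 7.24 and 10 CPM in ob/ob and 26.5, 27.2 and 38.2 CPM in CT ob, a fold change of -1.55 (standard error 0.32). The adaptor subunit gene Ap3s1 measured 88.0, 84.8 and 85.9 CPM in ob/ob and 48.3, 43.6 and 51.0 CPM in CT ob, a fold change of 0.86 (standard error 0.16). In both, each group was narrow and clear of the other. BCL2 family and death receptor genes (30 tested) had 1 higher and 3 lower and a median of -0.09 (-0.19 without obHet_65 to -0.06 without obHOM_50). Dapk2, a death-associated kinase gene, measured 1.40, 0.696 and 1.98 CPM in ob/ob and 6.92, 13.9 and 12.1 CPM in CT ob, a fold change of -2.98 (standard error 0.53). The initiator caspase gene Casp9 measured 29.1, 26.6 and 28.1 CPM in ob/ob and 47.3, 37.8 and 50.7 CPM in CT ob, a fold change of -0.70 (standard error 0.20). Both lay lower in ob/ob without overlap. Genes of the unfolded protein response (26 tested) had 5 higher and 0 lower and a median of 0.08 (-0.01 without obHOM_50 to 0.12 without obHOM_106).

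Immediate early and stress genes, which can respond within minutes to handling, varied between libraries of the same group. The 30 tested summed to 1103, 2835 and 5096 CPM in ob/ob and 1022, 2565 and 4860.2 CPM in CT ob, so each group held a library that was low and one that was high. Their median of -0.05 was 0.12 with library size alone and ran from -0.45 without obHOM_50 to 0.47 without obHet_68, with 0 members higher and 1 lower without overlap. Fos, the most abundant per kilobase, measured 171, 817 and 1667 CPM in ob/ob and 43.9, 549.9 and 1133 CPM in CT ob. Oocyte markers behaved likewise, with a median of 0.00 that was -0.98 without obHOM_106, 1.19 without obHet_60 and -0.02 with upper quartile scaling. Without these libraries, obHOM_106 and obHet_60, edgeR called 0 genes and 326 lay higher and 350 lower at an unadjusted p under 0.05.

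**Figure D3:**
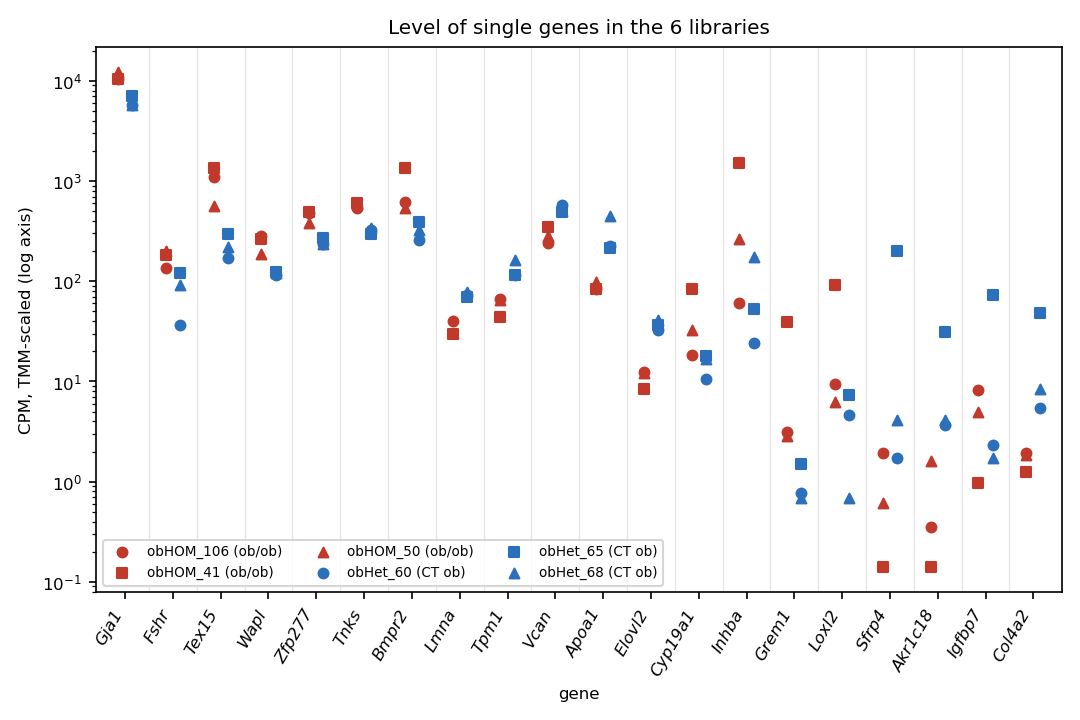
Level in CPM (log axis) of 20 named genes in the 6 libraries, red for ob/ob and blue for CT ob. Genes such as Gja1, Wapl, Tnks, Lmna and Elovl2 have tight groups that stay apart, while Inhba, Grem1 and Loxl2 have 1 high library, obHOM_41, and Sfrp4, Igfbp7 and Col4a2 have 1 high library, obHet_65.

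Genes close to the mutation were counted apart, because a congenic strain can carry a donor segment around it. On chromosome 6 of the GRCm39 annotation, 145 tested genes lay within 20 Mb of Lep, 8 of them higher and 7 lower without overlap, with a median of -0.04 and 1 DESeq2 call. From 20 to 40 Mb away, 88 genes were tested, 9 were higher and 5 lower without overlap, and DESeq2 called 3. At an unadjusted p under 0.05, 6 genes of that range lay higher and 3 lower. The chimaerin gene Chn2 lies in that range and measured 44.9, 43.9 and 44.0 CPM in ob/ob and 125, 99.1 and 79.5 CPM in CT ob, with every control above every ob/ob library. Nap1l5, higher in ob/ob and described with the imprinted genes, and Herc3 lie there too.

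The same lists were read in the db model, with its own mice, controls and filter, so that in most of them fewer genes were tested there. The db medians were of the other sign for GC markers (-0.05, 15 genes tested), laminins and basement membrane (0.18, 17), proteoglycans (0.24, 16), collagens (0.36, 11), actin and lamina (0.11, 40), cohesin and repair (-0.10, 36) and Zfp genes (-0.12, 303). They were of the same sign for Hox genes (-0.40, 4), luteal markers (-0.81, 6), clathrin, adaptor and ESCRT genes (-0.04, 69) and BMP and TGF-beta genes (0.09, 27). Of other lists that kept their sign without each library, the db median was of the other sign for the mitochondrial genome (-0.28, 8), imprinted genes (-0.04, 27) and WNT genes (0.13, 31). It was likewise for endothelial (0.15, 1), smooth muscle (1.23, 1), leptin (0.01, 24), BCL2 (0.03, 28) and solute carrier lists (-0.005, 170). It was of the same sign for the steroid (-0.10, 23), hormone receptor (0.12, 31) and cell cycle lists (-0.02, 58). As the tested members differ, the signs are not of the same genes throughout. Tests of the difference between the models' mutant effects in 1 fit of all 14 libraries called 0 of 12586 genes (0%) with edgeR, with 645 positive and 376 negative at an unadjusted p under 0.05, and 72 with DESeq2. Gja1, at 0.85 in the ob model and -0.32 in the db model, had an adjusted p for the difference of 0.215 with edgeR and 0.00148 with DESeq2. For Tex15, at 2.14 and -0.05, these were 0.282 with edgeR and 0.0201 with DESeq2. For Septin9, at -1.56 and 0.12, they were 0.189 with edgeR and 0.0118 with DESeq2. The models differ in strain as well as in the mutated gene, and the part of each was not tested.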

How the data were processed

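RNA-seq was performed on GCs of antral follicles, and the 6 libraries of ob/ob and CT ob mice were compared, 3 against 3. The authors deposited raw counts per gene without normalization. Per the paper, reads were trimmed with cutadapt, mapped to GRCm39 with STAR and counted with featureCounts, whereas the sample records name Trim Galore 0.6.2, HISAT2 2.1.0 and GRCm38. The conflict was not settled, and strand and multimapping settings are not stated. Symbols, exon lengths and positions came from a GRCm39 annotation, which held 54749 of the 55414 identifiers.

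TMM factors and quasi-likelihood tests came from edgeR 4.0.16 (R 4.3.3) after filterByExpr (minimum count 10, minimum total 15), with Benjamini-Hochberg adjustment over 12425 genes. The standard error of a log2 fold change is its size divided by the root of the F statistic. The common biological coefficient of variation was 0.326. DESeq2 1.42.0 and limma 3.58.1 (voom), other scalings, filters and depths, a fit of all 14 libraries, and each library left out in turn were alternatives. Gene lists are described by counts and medians, with no set test. The filter can admit a gene near the floor through its higher group alone, which partly fixes the direction of such genes in a list. The members and lists were chosen with earlier results of these data known. Scripts were tested on simulated counts. Genes named were Lep and Lepr, the 15 with the smallest p in each direction, in each list the 4 with the smallest p in each direction and the most abundant per kilobase, genes that the study names for the ob model, all cell type markers, and for each library the 5 genes with the largest ratio to the next library. The sample columns hold no replicate numbers. Some genes that the rule allows are not reported here.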

Additional observations from a re-analysis of the deposited data

How the results depend on the processing

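With edgeR and the main filter, 0 genes were called in each fit that left out 1 library or a pair, and with RLE, upper quartile or library size scaling. DESeq2 called 86 genes with all 6 libraries and 16 (without obHOM_41) to 92 (without obHet_68) with 1 left out. With edgeR, testing every gene with at least 1 count called 359 of 32006 genes, many of them too low for the main filter. A single fit of all 14 libraries called 1. At an unadjusted p under 0.05, the 592 genes higher in ob/ob became 355 (without obHOM_41) to 618 (without obHet_68) with 1 library left out, 326 without obHOM_106 and obHet_60, 307 without obHOM_41 and obHet_65, and 1157 with every gene with at least 1 count. The 422 lower genes became 259 (without obHOM_41) to 534 (without obHet_60), 257 without obHOM_41 and obHet_65, 250 with library size alone, 1396 with every gene with at least 1 count and 666 in 1 fit of all 14 libraries. Of genes whose libraries do not overlap, 1811 lay higher with every gene with at least 1 count. Fewer libraries are easier to separate, and with 1 left out 1451 (obHOM_106) to 1751 (obHet_68) lay higher and 1430 (obHOM_106) to 1772 (obHet_68) lower. Without obHOM_106 and obHet_60 these were 2149 and 2205, without obHOM_41 and obHet_65 2274 and 2321, and without obHOM_41 and obHet_68 2398 and 2543. For the interaction of mutant effect and model, DESeq2 called 72. Of the genes given with a fold change, Abcc2, Ccn2 and Igfbp7 took the other sign in another setting. With 1 library left out Abcc2 ran from -0.43 (obHOM_41) to 3.22 (obHOM_50), Ccn2 from -3.48 (obHOM_106) to 1.09 (obHet_65) and Igfbp7 from -3.10 (obHOM_106) to 1.19 (obHet_65), and without obHOM_41 and obHet_65 they stood at -0.75, 1.57 and 1.67. The cause was not tested. Leaving out pairs, and DESeq2 with 1 library left out, were chosen after seeing the data. No paired analysis was possible because the labels share replicate numbers between groups but the count columns carry none, so the planned replicate block was not run. Depth limits genes near the floor, which lay highest in obHet_68.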
